A study of Mus musculus with 8 samples.

Results

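The nuclear receptor genes described here are those of the mouse protein-coding gene table whose symbol follows the receptor family's nomenclature (Nr, digit, letter, digit), without Nr4a1 to Nr4a3, together with 34 receptors listed by name, such as Rara, Vdr and Esr1. The rule gave 37 genes of 21779 protein-coding genes used. The 3 that the symbol pattern added to the list were Nr0b1, Nr0b2 and Nr1h5. Among the receptor genes outside the rule are Rora, Rorb, Pgr, Esrrb, Esrrg, Hnf4a and Hnf4g. No measured value entered it.

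The binding of Smad4 was read by ChIP-seq, the sequencing of DNA precipitated with an antibody to it, in CD4+ T cells that C57BL/6 mice gave from lymph nodes and spleen. All cells were activated in culture and had 12 h of IL6 together with an inhibitor of the TGF-β receptor (TGFbR) whose name is not given. The study's title concerns the lifting of SKI-SMAD4 repression during Th17 differentiation. The wild type (WT) group had 2 ChIP libraries, both labelled female. The knockout (KO) group, of genotype CD4cre;Smad4fl/fl, had 2, replicate 1 from a pool of males and females and replicate 2 from males. There, Cre recombinase driven by Cd4 sequences, and so present in the T cell lineage, deletes the floxed Smad4 alleles. Sex and genotype cannot be told apart. Ages are not stated. The 4 input samples were not analysed here. That replicates are different animals is nowhere stated, and a p-value below therefore measures only the spread between these samples, which may be technical.

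The peak lists were long in WT (27120 peaks for replicate 1, 19792 for replicate 2) and short in KO (564 and 424). The lists give positions without a height or score, and the read depth is unknown. A list cannot tell binding in fewer cells from weaker binding per cell, nor show whether Smad4 was deleted. A WT-only region here is a stretch with a peak in both WT lists and none in either KO list, and there were 15882 of them. All 7 CD4+ T cell marker genes that were found in the table had such a region in or within 10 kb of the gene. It was 2 of 4 B cell, 0 of 2 CD8 T cell and 0 of 4 myeloid markers, and 44.3% of all protein-coding genes. The B cell gene Cd79a had 5 regions, and the CD4+ T cell markers had from 2 at Cd4 to 16 at Bcl11b. The CD8 T cell gene Cd8b1, without a region, had 3 peaks of WT replicate 1, 0 of WT replicate 2 and 1 of KO replicate 1. Peaks show binding and not expression, so these counts do not identify the cells. Cd3g, Cd3d and Cd3e are neighbours whose surroundings overlap, so the 7 are not separate observations.

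Nuclear receptors are transcription factors, most of which bind short DNA elements and respond to small lipophilic ligands such as retinoic acid, vitamin D, thyroid hormone, steroids, fatty acids and oxysterols. Many pair with a retinoid X receptor. Without ligand several recruit co-repressors, and with ligand they exchange them for co-activators. In CD4+ T cells retinoic acid and vitamin D receptors are known for effects on Th17 and regulatory T cell fates, the glucocorticoid receptor for restraint of inflammation, and the Nr1d and Nr2f6 receptors as repressors that act on the Th17 programme.

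Promoter sequences are shown for 6 receptors: Esr1, whose window holds the complete SMAD palindrome; Ppard, Nr1h2 and Rxrb, whose windows hold other SMAD motifs inside a WT-only region; Rara, which had most regions; and Rarb, its unbound relative. Each is the RefSeq window from 250 bases before to 50 after a start site (GRCm38.p6, the mm10 assembly), on the gene's own strand. Capitals mark GTCTAGAC (the palindromic SMAD element), CAGAC on either strand (the core SMAD box, in reverse GTCTG) and GGCGCC (a GC-rich SMAD element).
Esr1 (chr10:4611739-4612038, plus strand): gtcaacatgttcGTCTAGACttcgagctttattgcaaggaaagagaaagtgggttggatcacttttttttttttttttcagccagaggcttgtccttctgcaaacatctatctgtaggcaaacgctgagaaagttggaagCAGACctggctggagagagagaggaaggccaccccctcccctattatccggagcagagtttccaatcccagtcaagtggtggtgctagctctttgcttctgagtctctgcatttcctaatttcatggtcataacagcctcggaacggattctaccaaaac
Ppard (chr17:28232504-28232803, plus strand): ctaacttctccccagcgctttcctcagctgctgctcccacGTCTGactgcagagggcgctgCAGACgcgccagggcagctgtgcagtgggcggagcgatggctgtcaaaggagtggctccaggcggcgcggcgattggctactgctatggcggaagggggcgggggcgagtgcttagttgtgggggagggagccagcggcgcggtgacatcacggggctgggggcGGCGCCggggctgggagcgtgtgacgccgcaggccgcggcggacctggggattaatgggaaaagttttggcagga
Nr1h2 (chr7:44553916-44554215, minus strand): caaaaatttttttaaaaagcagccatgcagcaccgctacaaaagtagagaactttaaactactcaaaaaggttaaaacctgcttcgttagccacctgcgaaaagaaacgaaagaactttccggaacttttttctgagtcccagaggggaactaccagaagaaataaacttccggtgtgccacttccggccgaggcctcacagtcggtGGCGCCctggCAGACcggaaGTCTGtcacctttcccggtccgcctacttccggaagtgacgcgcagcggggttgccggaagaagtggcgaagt
Rxrb (chr17:34031562-34031861, plus strand): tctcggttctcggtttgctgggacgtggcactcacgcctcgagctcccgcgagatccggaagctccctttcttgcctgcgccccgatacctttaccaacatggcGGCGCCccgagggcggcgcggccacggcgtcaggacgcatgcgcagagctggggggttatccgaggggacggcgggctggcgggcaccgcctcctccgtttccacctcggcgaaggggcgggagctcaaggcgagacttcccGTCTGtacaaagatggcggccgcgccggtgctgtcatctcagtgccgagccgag
Rara (chr11:98937446-98937745, plus strand): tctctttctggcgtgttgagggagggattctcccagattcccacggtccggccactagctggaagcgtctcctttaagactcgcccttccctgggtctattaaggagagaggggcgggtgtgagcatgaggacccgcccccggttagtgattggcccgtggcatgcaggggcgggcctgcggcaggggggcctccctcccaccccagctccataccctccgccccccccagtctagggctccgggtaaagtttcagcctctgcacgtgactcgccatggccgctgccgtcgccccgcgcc
Rarb (chr14:16575427-16575726, minus strand): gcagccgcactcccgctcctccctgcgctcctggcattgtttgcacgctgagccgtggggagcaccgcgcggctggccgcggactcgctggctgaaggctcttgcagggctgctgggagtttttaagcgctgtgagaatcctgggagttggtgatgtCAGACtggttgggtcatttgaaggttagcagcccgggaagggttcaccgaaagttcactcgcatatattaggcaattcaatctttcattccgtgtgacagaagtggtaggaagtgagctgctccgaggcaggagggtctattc

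A WT-only region lay in the territory of 21 of the 37 receptor genes, the territory being the gene body and 10 kb on both sides. This is 56.8%, against 44.3% of all protein-coding genes. Some receptor territories overlap. Counted once they are 35, of which 20 had a region, as Thra and Nr1d1 share theirs. Of the receptors 27 fell in the longer 5 of 10 groups of all coding genes by territory length. The share of genes with a region rose from 9.92% in the shortest group to 58.6% in the ninth and was 48.1% in the longest, which held 8 receptors. The groups' shares, weighted by where the receptors fell, averaged 49.6%, or 18.3 of 37 genes. In the 5 shorter groups 6 of 10 receptors had a region, against 35.7% of genes there. That share is lowered by the shortest group, which held 0 of the receptors, so this gap is not one at matched length. In the 5 longer groups 15 of 27 receptors had a region, against 53.0% of genes. Within gene bodies alone the count was 15 receptors, 40.5% against 34.8% of all genes. With 50 kb on both sides it was 23 receptors, 62.2% against 61.8%. With only the wider peaks of each WT list it was 17 receptors, 45.9% against 29.7%. The gap to all coding genes thus depended on the definition, near 0 with 50 kb and wider with the wider peaks, and it was not tested.

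**Figure D1:**
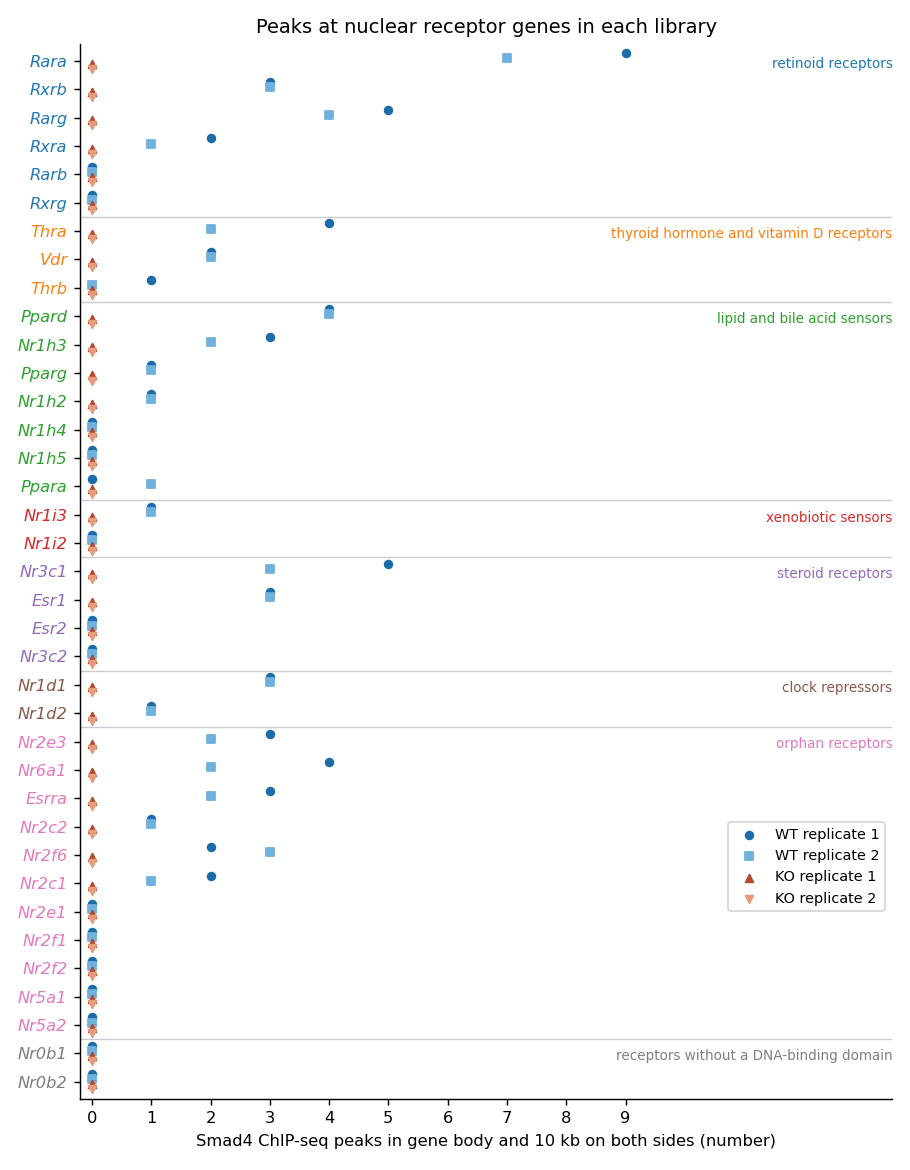
Smad4 peaks (number, x axis) in the territory of each of the 37 receptor genes (y axis, grouped and coloured by role), with a point for each of the 2 WT and 2 KO libraries, shifted vertically so that they can be told apart. Rara has 9 and 7 WT peaks, 14 genes have none in any library, and all KO points are at 0.

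Receptor territories held 60 peaks of WT replicate 1, 48 of WT replicate 2 and 0 of each KO library. The groups did not overlap. WT libraries averaged 54.0 ± 8.49 receptor peaks (SD, n = 2) and KO libraries 0 (2-sided exact permutation test of log10(peaks + 1), p = 0.33, the smallest that 2 against 2 allows). WT replicate 1 had a peak at 22 receptors, against 53.5% of all coding genes, and WT replicate 2 also at 22, against 48.5%. A KO peak lay in the territory of 2.42% of all coding genes, which over 37 genes comes to 0.894. At the share of WT peaks that fell on receptors, the KO lists would have had 1.30 and 0.976 peaks there. Lists this short thus leave about 1 peak to be found at receptors, and 0 cannot be told from that.

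The 21 receptors had between them 40 distinct WT-only regions. Of these receptors 9 had 1 region, 7 had 2, 3 had 3, Ppard had 4 and Rara had 6. Over all coding genes with a region the median was 1, and 18.8% had 3 or more. The receptor regions had a median width of 848 bp, from 283 to 4134 bp, and the median over all WT-only regions was 644 bp. Of the 40 regions, 11 lay within 1 kb of a RefSeq start site of the receptor itself and 8 within 1 kb of the start site of another coding gene only. A further 18 lay within 1 kb of no coding start site in the RefSeq promoter table. That table covers 17492 of the 21779 coding genes, so a start site outside it may lie near some of them. The 3 regions of Nr3c1 lie on a chromosome without start sites in that table. The body of a receptor gene was met by 26 regions. The gene table gives bounds only, so exons and introns are not stated.

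**Figure D2:**
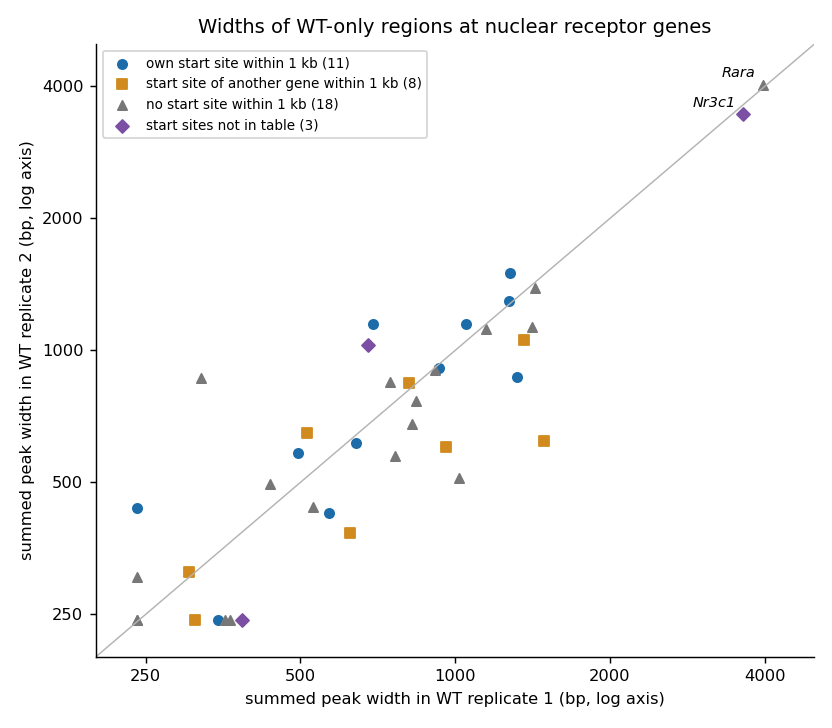
Summed peak width of each of the 40 WT-only regions at receptor genes in WT replicate 1 (x axis, bp, log axis) and WT replicate 2 (y axis, bp, log axis), marked by the region's place, with the line of equal width. The widest regions, at Rara and Nr3c1, are at least 3460 bp wide in both libraries and stand apart from the rest.

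Among the retinoid receptors, Rara, Rarg, Rxra and Rxrb had WT-only regions, and Rarb and Rxrg had no peak in any library. Rara, the main retinoic acid receptor of lymphocytes (chr11:98927800-98974942), had 9 peaks in the first WT replicate and 7 in the other, none in KO, and 6 WT-only regions, all meeting the gene body. Of all coding genes 1.39% had 6 or more. The widest lay at chr11:98941451-98945584, 1.74 kb from the nearest Rara start site, covered by 3972 bp of peak in WT replicate 1 and 4040 bp in WT replicate 2. Both libraries gave it nearly the same width. A region of 1329 bp (chr11:98937310-98938638; 1270 and 1298 bp) covered the printed Rara window and a further window that starts 22 bases away. Another (chr11:98939361-98940748; 692 and 1150 bp) covered another window, and a region of 1432 bp (chr11:98959182-98960613) lay 4.26 kb from the fourth start site, whose own window was not met. The remaining regions were 496 and 364 bp wide. Rara stayed bound under each of the 14 alternatives tried, several of which could not have unbound it.

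Rarg, another retinoic acid receptor gene, known mainly from skin and skeleton (chr15:102234938-102257522), had 5 and 4 peaks in WT replicates 1 and 2 and 3 WT-only regions. At its upstream start site lay a region of 568 bp (chr15:102257069-102257636; peaks of 568 and 426 bp). The widest, 1155 bp, lay 9.01 kb beyond the other end of the gene (chr15:102224771-102225925) and the smallest, 283 bp, lay 1.07 kb from its internal start site. The start site nearest to the widest was that of another gene, Itgb7, at 6010 bp. Rarg kept 2 regions when each went to its nearest coding gene. Rxrb, a retinoid X receptor gene in the major histocompatibility complex (chr17:34031812-34038403), had 3 peaks in each WT library. Its start region (chr17:34031349-34032537; peaks of 1052 and 1146 bp) covered both Rxrb windows and lay within 1 kb of the start of Slc39a7, a zinc transporter gene, so it cannot be given to either gene alone. The other Rxrb regions lay at the starts of Ring1 and H2-Ke6. Rxra, the broadly expressed retinoid X receptor gene (chr2:27676445-27763319), had 2 peaks in the first WT replicate and 1 in the other. Its region was inside the gene (chr2:27728190-27729035; 748 and 846 bp), 18.9 kb from a start site, and no region met its CpG-rich window. The nearest WT-only region to Rarb lay 64.7 kb from the gene, and to Rxrg 248 kb.

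Of the thyroid hormone and vitamin D receptors, Thra and Vdr had regions in their territories and neither was met in its body. Thra, the thyroid hormone receptor α gene, overlaps Nr1d1 at its end. Its 2 regions, 4.33 and 6.45 kb outside the gene, were those of Nr1d1 and carry no separate information. Within the Thra body lay a peak of WT replicate 1 alone, 240 bp wide (chr11:98754740-98754979). Vdr (chr15:97854427-97908296) had 2 peaks in each WT library, and its 1 region (chr15:97849249-97850167; 912 and 902 bp) lay 4.26 kb beyond the gene and 58.1 kb from the Vdr start site. The start site nearest to this region was that of another gene, Hdac7, at 4747 bp. Vdr kept the region when each went to its nearest coding gene. Thrb, the receptor β gene, had a peak of 240 bp in WT replicate 1 (chr14:17660268-17660507), 453 bp from a start site, and none in WT replicate 2.

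Among the lipid sensors, Ppard had the most regions. Ppard, the widely expressed fatty acid receptor of the PPAR group (chr17:28232754-28301469), had 4 peaks in each WT library and none in KO, and every peak fell in a WT-only region. The start site lay under a region of 632 bp (chr17:28232211-28232842; 494 and 582 bp), which covered the printed window with its 2 CAGAC boxes and its GGCGCC. Upstream, at 6.22 and 8.17 kb from the gene, lay regions of 536 bp (chr17:28226002-28226537) and 849 bp (chr17:28223732-28224580). The territory also holds 1 other coding gene, and Ppard kept 2 of its 4 regions when each went to its nearest coding gene. A region of 840 bp lay inside, 24.0 kb from the start site (chr17:28256726-28257565; 840 and 768 bp). Both WT libraries gave each Ppard region a like width. Pparg, the adipocyte receptor (chr6:115360879-115490404), had 1 peak in each WT library, in a region inside the gene (chr6:115480109-115480870; 762 and 574 bp) that lay 58.0 kb from its nearest start site. None of its 3 windows was met. Ppara, the liver receptor of fatty acid oxidation, had only a peak of 242 bp in WT replicate 2 (chr15:85811189-85811430).

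Nr1h2 and Nr1h3 encode the oxysterol receptors LXRβ and LXRα. Nr1h2, the broadly expressed form (chr7:44549616-44553968), had 1 peak in each WT library, of 640 and 616 bp, in a region over its start site (chr7:44553681-44554335) that held the whole printed window. Nr1h3 (chr2:91184061-91202829) had 3 and 2 peaks in WT replicates 1 and 2. Its 2 regions lay at the start sites of its neighbours, Madd (chr2:91182480-91183965; 1486 and 620 bp) and Acp2 (chr2:91202558-91203181; 624 and 384 bp), 11.1 and 7.44 kb from a start of Nr1h3. A start site in the promoter table was thus covered in Nr1h2 and none in Nr1h3. The region at Acp2 also lay over the upper bound of the Nr1h3 body, which is the upstream end of this minus-strand gene. The table gives no Nr1h3 start site there, so the 2 LXR genes cannot be said to differ in place. Nr1h4, the bile acid receptor gene, and its relative Nr1h5 had no peak. Of the xenobiotic sensors of liver, Nr1i2 had none, and Nr1i3 had 1 peak of 240 and 304 bp in the WT libraries, 3.73 kb outside the gene (chr1:171222575-171222895). The start site nearest to that region was that of another gene, Apoa2, at 1011 bp. Nr1i3 kept 0 regions when each went to its nearest coding gene.

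Among the steroid receptors, Nr3c1 and Esr1 had regions, and Esr2 and Nr3c2 had no peak. Nr3c1, the glucocorticoid receptor gene (chr18:39410545-39519421), had 5 peaks in the first WT replicate and 3 in the other. Of its 3 regions, that at chr18:39488773-39492408, inside the gene, was 3636 bp wide, with peaks of 3636 and 3460 bp, the second widest of the 40. A region of 1030 bp lay over an end of the gene (chr18:39519119-39520148; 678 and 1030 bp), and the third was 384 bp wide. Esr1, the oestrogen receptor α gene (chr10:4611989-5005633), had 3 peaks in each WT library and 2 WT-only regions, both narrow. The region on its first start site (chr10:4611603-4612011) had peaks of 346 and 242 bp, and the other, 453 bp wide, lay 267 kb further on inside the gene. Neither remained when the centres of WT peaks had to lie within 100 bp, or when only the wider peaks of each list were used.

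The Nr1d genes encode the REV-ERB repressors of the circadian clock, and both had a region at the start site. Nr1d1 (chr11:98767932-98775377) had 3 peaks in each WT library. A region of 981 bp lay 82 bp upstream of its start site (chr11:98775459-98776439; peaks of 932 and 912 bp), and a region of 1018 bp lay inside the gene (chr11:98773338-98774355; 1018 and 512 bp), 1.02 kb from it. Nr1d2 (chr14:18204056-18239106) had 1 peak in each WT library, of 1322 and 870 bp, in a region of 1322 bp over the start site (chr14:18237910-18239231). Both genes kept a region under each of the 14 alternatives, as did Rara, Rarg, Rxrb, Ppard and Nr1h2, though several alternatives could not have removed one.

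**Figure D3:**
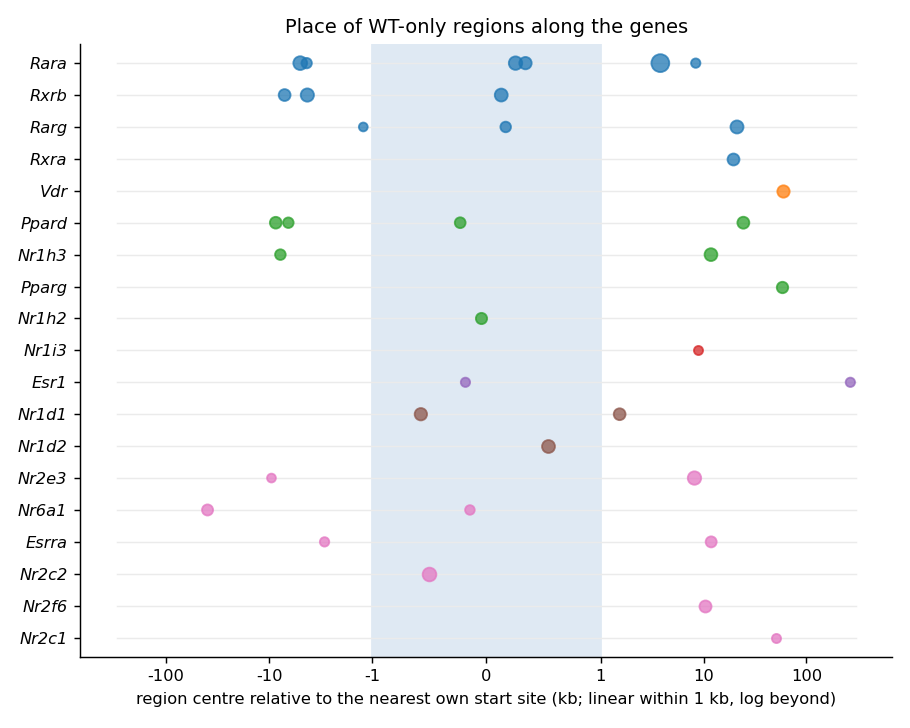
Centres of the WT-only regions relative to the nearest start site of the receptor gene itself (kb; the axis is linear within 1 kb and logarithmic beyond; negative is upstream), for the 19 receptors with a region and a start site in the RefSeq table. Colours give the role, point area grows with the square root of the summed peak width, and the shaded band spans 1 kb on each side of the start. In 9 of the 19 genes no region lies within 1 kb of a start site that the table gives for the gene.

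Of the 11 orphan receptors, 6 had a region. Nr2c2, the testicular receptor TR4 (chr6:92091418-92173058), had 1 peak in each WT library, of 1278 and 1502 bp, over its start site (chr6:92091170-92092689). Nr6a1, the germ cell nuclear factor (chr2:38723369-38926461), had 4 and 2 peaks in WT replicates 1 and 2. A region of 436 bp covered its start site (chr2:38926387-38926822; 240 and 436 bp) and a region of 866 bp lay inside the gene (chr2:38823643-38824508), where the peaks were 320 and 866 bp wide. Nr2e3, a photoreceptor factor gene (chr9:59942771-59960834), had 3 and 2 peaks, and a region of 1412 bp (chr9:59941205-59942616; 1412 and 1130 bp) 155 bp outside the gene and near no coding start in the table. Its other region, 301 bp wide, lay inside the gene (chr9:59959393-59959693, with peaks of 240 and 242 bp), 9.31 kb from its start site.

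Esrra, Nr2c1 and Nr2f6 had reproducible regions at their neighbours' starts and peaks of single libraries at their own. Esrra, the oestrogen-related receptor of mitochondrial metabolism (chr19:6910977-6922048), had regions at Trmt112 and Prdx5 (chr19:6909526-6910355; 514 and 648 bp) and at Catsperz, and a WT replicate 1 peak of 300 bp that lay 58 bp from its own start site (chr19:6921866-6922165). Nr2c1, the relative TR2, had a region at Ndufa12 (chr10:94198814-94199125; 312 and 242 bp) and a WT replicate 1 peak of 310 bp on its own start site (chr10:94147674-94147983). Nr2f6, a repressor of cytokine genes in T cells (chr8:71374118-71381967), had a region at Ocel1 (chr8:71371048-71372111; 814 and 842 bp). Around its own start site WT replicate 1 had a peak of 300 bp (chr8:71382085-71382384) and WT replicate 2 a peak of 412 bp (chr8:71381419-71381830), 133 and 122 bp from the site on opposite sides, so that they did not meet and formed no region. Of these genes only Nr2f6 thus had peaks of both WT libraries around its start. At the starts of Esrra and Nr2c1 the peak was in WT replicate 1 alone.

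No peak of any library lay at 14 receptors: Rarb, Rxrg, Nr1h4, Nr1h5, Nr1i2, Esr2, Nr3c2, Nr2e1, Nr2f1, Nr2f2, Nr5a1, Nr5a2, Nr0b1 and Nr0b2. Among them are Nr5a1, known from adrenal and gonad, and Nr2e1, known from neural stem cells, but receptors with a region also include ones known from other tissues, such as Nr2e3 and Pparg. Expression was not measured here. With Thrb and Ppara, whose peaks were in 1 WT library each, they make up the 16 receptors without a WT-only region. The nearest such region was 27.4 kb from Nr0b2 and 31.3 kb from Nr1h5, and for Nr2f2, Nr2f1 and the X-linked Nr0b1 it was 1590, 2170 and 7930 kb away. The genes without peaks included long ones, such as Rarb (chr14:16430839-17082331) and Nr3c2 (chr8:76898083-77245012). A long territory alone thus did not give a receptor a region.

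Start sites gave a lower count than territories. Of the 34 receptors with a start site in the RefSeq promoter table, 10 (29.4%) had a WT-only region within 1 kb of one, against 30.3% of the 17492 coding genes in it. These were Rara, Rarg, Rxrb, Ppard, Nr1h2, Esr1, Nr1d1, Nr1d2, Nr2c2 and Nr6a1. Receptors were thus at the background rate at their own start sites. The other 9 with a region, among them Rxra, Vdr and Nr1h3, had it only away from the start sites that the table gives them.

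**Figure D4:**
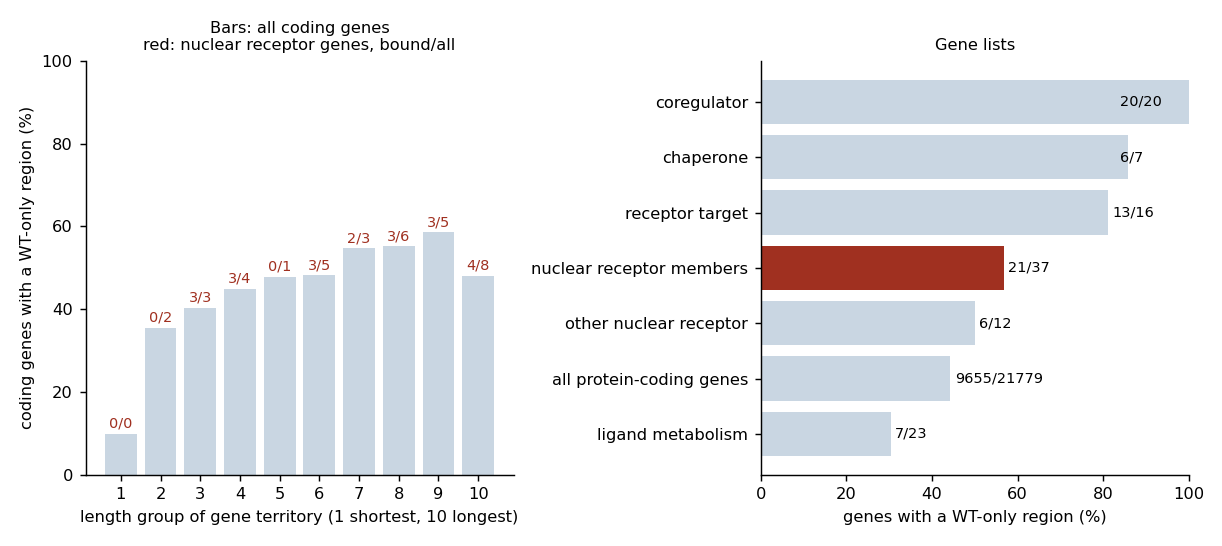
Left, share of all coding genes with a WT-only region (%, bars) in 10 groups of territory length, with the receptor genes with a region over all receptor genes of the group in red. Right, the share (%) in the receptor genes (red bar, 21 of 37), in 5 lists of related genes and in all coding genes, with counts at the bars; the share in all coding genes is 44.3%.

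The 300-base promoter windows of the receptors, 49 for 34 genes, were compared by composition. A WT-only region met 13 windows of 10 genes. The median number of CpG dinucleotides was 20 in the windows met and 10 in the 36 others. Over all coding genes it was 25 in the 5707 windows met and 7 in the 15556 not met. The receptor windows differed in the same direction as all windows, which are not independent of each other. Exceptions lay on both sides. The window of Rxra with 55 CpG, that of Nr2f6 with 53 and a Pparg window with 44 were not met, while those of Esr1, with 6, Nr1d1, with 9, and the third Rara window, with 5, were.

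**Figure D5:**
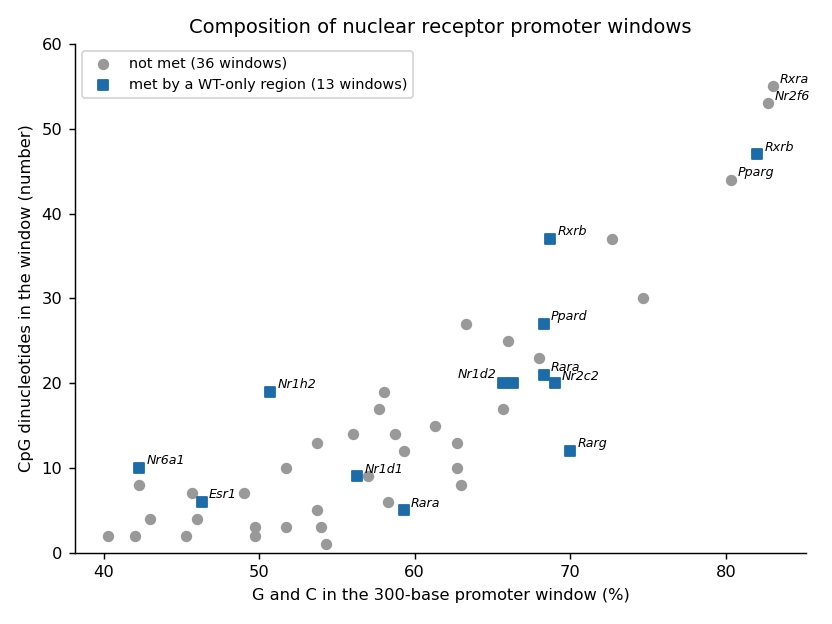
G and C content (%, x axis) and number of CpG dinucleotides (y axis) of the 49 promoter windows of 34 receptor genes, 13 met by a WT-only region (blue squares) and 36 not met (grey circles). Windows met lie over most of the range, from Nr6a1 at 42.3% G and C to Rxrb at 82.0%.

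SMAD motifs were counted on both strands of the windows. No motif contains another, though their ends can share letters. The palindrome GTCTAGAC stood in 0.226% of all 21263 coding windows, in 0.368% of those met by a WT-only region and in 0.174% of the others. Among the receptors of the rule it stood in the first Esr1 window, at chr10:4611751-4611758, 238 bases upstream of the start site and inside the WT-only region, with a CAGAC box 110 bases upstream. A window of Pgr, the progesterone receptor gene outside the rule, also held it and was not met by a region. CAGAC, a short word, stood in 48.4% of all coding windows, in 5 of the 13 receptor windows met and in 17 of the 36 not met. GGCGCC stood in 15.3% of all coding windows, 25.8% of those met and 11.5% of those not met. In receptor windows the counts were 4 of 13 met, which were those of Ppard and Nr1h2 and both of Rxrb, and 8 of 36 not met. The AP-1 motif TGANTCA was found in 0 of 13 and 1 of 36 receptor windows, and in 6.99% of all. The printed Rara window, under a reproducible region, held none of the SMAD motifs, and the unbound Rarb window held 1 CAGAC box. The receptor element AGGTCA stood in 2 of 13 and 10 of 36 receptor windows and in 14.7% of all. A match describes the letters of the window and not a bound site.

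Genes that work with nuclear receptors were counted in the same way, and no test was made on these lists. All 20 coregulator genes had a WT-only region, against 44.3% of coding genes, with a median of 2 regions a gene against 1 for the receptors. Ncoa3, which encodes a steroid receptor co-activator, had 7 regions from 8 and 7 peaks in WT replicates 1 and 2. The co-activator gene Ncoa2, the acetyltransferase gene Kat2b and Nrip1, a co-repressor gene, had 4 each. The co-repressor gene Ncor1, whose product unliganded receptors recruit, had 3. KO peaks lay at 2 coregulators, Tbl1x (1 in each KO library) and Tbl1xr1 (1 in KO replicate 1). Of the 7 chaperone genes that hold steroid receptors, 6 had a region, led by Fkbp5 with 4, Hsp90ab1 and Hsp90aa1 with 3 each and Hspa8 with 2. Fkbp4 had no peak.

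Of 16 genes known as targets of receptors, 13 had a region. The sterol exporter gene Abcg1 had 5 (8 and 7 peaks), the clock gene Per1 4, and Nfil3, which encodes a repressor of clock and cytokine genes, 4, followed by Bhlhe40 with 3, where each KO library also had a peak. Pdk4 and Plin2, targets of fatty acid receptors, had no peak. In the 23 genes of ligand synthesis, transport and breakdown the count was 7, or 30.4%. Dhrs3, a retinaldehyde reductase gene, had 3 regions, and Rdh10, a retinol dehydrogenase gene, Cyp27b1, which encodes the enzyme that activates vitamin D, and Hsd11b1, which encodes the enzyme that reactivates glucocorticoids, had 1 each. The retinaldehyde dehydrogenase genes Aldh1a1 and Aldh1a2 and the vitamin D hydroxylase gene Cyp24a1 had no peak. The lists thus ran from all coregulators to a share below that of all coding genes for ligand metabolism, with the receptors between.

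The 12 nuclear receptor genes outside the rule had a region in 6 cases. Rora led with 17, and KO replicate 2 had 1 peak there, then came Nr4a1 with 5, Nr4a3 with 4 and Nr4a2 with 3. The highest count within the rule, 6 at Rara, lay above that of Nr4a1 and below that of Rora. The difference between the sets was not tested.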

How the data were processed

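Smad4 ChIP peak lists of 2 WT and 2 KO samples were used. The authors deposited chromosome, start and end of each peak on mm10, one list per sample, with no score or other measured value. Tools named in the submitters' processing notes, with no role, are HOMER 4.8.3, Bowtie and Trim Galore. Peak thresholds and the use made of inputs are not stated there. Starts were converted to 1-based positions. WT peaks meeting by at least 1 bp were merged. Gene bounds came from RefSeq (GRCm38.p6, 21900 coding genes, less 121 with a start under 3 Mb, the Y chromosome excepted). Promoter windows came from RefSeq and were found for 34 of 37 members. Of 96 genes in the related lists, 95 were found; some are counted but not reported by name here.

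Members and lists were chosen with earlier results of these data known, so counts are set beside all coding genes, with no test of the list. Named in full are the 10 members with most WT-only regions, members with peaks in 1 WT list and up to 4 genes per list; other genes were named after their values were seen. The overlap code was checked on placed regions. Alternatives concerned overlap, peak width, KO exclusion, territory, assignment and each library. The software was SciPy 1.17.1, pandas 2.3.3 and numpy 2.4.6 under Python 3.11.15, with matplotlib 3.10.9 for figures.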

Additional observations from a re-analysis of the deposited data

How the results depend on the processing

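The count of 21 receptors with a WT-only region ran from 15 to 23 under the alternatives for overlap, peak width, KO exclusion, territory and library, and fell to 10 with regions within 1 kb of an own start site, a rule that 3 members without a start site in the table cannot meet. Without each library it was 21 to 22. Of the 40 regions, 26 remained within gene bodies and 11 within 1 kb of an own start site, rules that use less of the territory; 50 kb on both sides gave 69. The wider peaks of each WT list gave 26. With each region given to its nearest coding gene within 100 kb, the counts were 15 receptors and 29 regions. The share of all coding genes was not computed under that rule or the overlap rules, so these counts have no background beside them. Without each library in turn the count of regions was 40 to 60, the highest without WT replicate 2, where a region rests on 1 list. Receptors with a KO peak stayed at 0 except with 50 kb on both sides, where there were 2. Of the regions, 14 lay within 1 kb of an end of the gene, 22 with a window of 5 kb, and 14 to 18 without each library. Of the 21 receptors, 7 had a region under each of 14 alternatives, and 12 of the 16 others had none under any. Several of the 14 could not unbind a receptor. Those on the KO lists could not, as no KO peak lay in or near a region here. Leaving out a WT list or taking 50 kb can only keep or add receptors. These alternatives say nothing on how firm a bound receptor is. The replicate block, which clears each WT list of the KO peaks of its own number only, gave 21 receptors and 40 regions; for peak numbers its exact p was 0.5, the smallest that 2 pairs allow. The numbers were not taken as pairs. Across the 21779 coding genes the deviations of same-numbered libraries had a correlation of 0.0158. Only 526 of these genes had a KO peak, so at most genes the KO libraries could not deviate. The correlation therefore cannot decide whether the libraries are paired. Unknown read depth limits each statement that a peak is missing.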

Other observations

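Vdr and Esrra were the receptors with a KO peak within 50 kb. At chr15:97825080-97825399, 29.0 kb beyond Vdr, KO replicate 1 had a peak of 320 bp and KO replicate 2 one of 234 bp, and both met WT peaks of 1028 and 878 bp in replicates 1 and 2. The KO replicate 2 peak 22.3 kb from Esrra, 294 bp wide, met no WT peak. The palindrome that marks the first Esr1 window also stood in a window of Smad6, an inhibitory SMAD gene, that a WT-only region met; Smad6 was chosen after its values were seen.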
